A study of Mus musculus with 24 samples.

Results

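CI-994 without foot shock was set directly against foot shock without CI-994: 3 HDACi-Context libraries against 3 Veh-CFC libraries, which are 6 of the 12 H3K27ac libraries and 6 of the 24 samples in the series. The members were taken by their group labels alone, and every peak of the deposited matrix was used. The HDACi-Context mice received CI-994, a class I histone deacetylase inhibitor, at 30 mg/kg by intraperitoneal injection 1 hour before they explored the conditioning chamber, and were never shocked. The Veh-CFC mice received the same solution without CI-994 and, after 3 min in the chamber, 2 foot shocks of 0.2 mA and 1 s each, the procedure called contextual fear conditioning (CFC). HDACi-CFC mice had both CI-994 and shocks, and Veh-Context mice had neither; these groups, with 3 libraries each, are used below where they place a peak. All mice were male C57BL/6J, 12 weeks old, and were killed 1 hour after the test.

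Both the drug and the shock differ between HDACi-Context and Veh-CFC, so a difference here cannot be assigned to either of them from this comparison alone. The labels state that drug was assigned at random but that mice sharing a cage shared their behavioural protocol, so that shock and cage cannot be told apart. Nuclei carrying NeuN, a neuronal nuclear protein, were sorted before immunoprecipitation, from about 750000 nuclei per sample. The sample titles name the hippocampus and the source names the dentate gyrus. The labels do not say how many animals gave a library, so p-values measure the spread between these samples only. The input libraries were not analysed here.

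H3K27ac, the acetylation of lysine 27 of histone H3, marks active promoters and enhancers. It is laid down mainly by the acetyltransferases CBP and p300 and is removed by histone deacetylases, class I members of which are blocked by CI-994. In the hippocampus, neuronal activity during learning turns on immediate early genes such as Fos and Arc, whose promoters and enhancers gain acetylation, and histone deacetylase inhibitors are known for strengthening such memories in rodents.

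Counts in peaks summed to 13533876, 16734757 and 13880504 in the HDACi-Context libraries and to 7836555, 9666039 and 7222654 in the Veh-CFC libraries. Depth therefore did not overlap between the groups, and the main counts are given below with all libraries thinned to the smallest total. On the first principal component, which held 47.6% of the variance of log2 CPM (counts scaled to a common library total), the HDACi-Context libraries lay at -80.45, -160.5 and -198.8 and the Veh-CFC libraries at 172.4, 75.41 and 28.56. The Veh-CFC replicate 1 library stood farthest from the other libraries of its group, and counts without it are given beside the main ones. All 14 granule neuron markers, Prox1 among them, had a peak at their promoter, with a summed level of 589 to 704 CPM in HDACi-Context libraries and 905 to 1110 CPM in Veh-CFC libraries. Of 18 interneuron markers 6 had a promoter peak, and Gad2, Pvalb and Sst had none. Promoter peaks were found for 10 of 15 CA pyramidal, 11 of 14 astrocyte, 12 of 15 oligodendrocyte, 8 of 10 precursor, 9 of 14 microglia and 3 of 14 endothelial and mural markers.

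Acetylation differed at a large share of all peaks, and the direction of the difference depended on where the peak lay. Of 144014 peaks tested, 51726 (35.9%) passed an adjusted p of 0.05 in edgeR's quasi-likelihood test with Benjamini-Hochberg adjustment, the rule by which a peak is called here. In HDACi-Context 22675 peaks (15.7%) were higher and 29051 (20.2%) were lower than in Veh-CFC. Large differences were mostly losses: 4300 called peaks were higher by a log2 change of at least 1 and 15015 were lower by at least as much. In 45784 of the 51726 called peaks the 3 libraries of one group did not overlap the 3 of the other. Such separation was counted among called peaks only, which the call itself favours, so it is no separate evidence for the calls. The median log2 change over all tested peaks was 0.02, and the 10th and 90th percentiles were -1.07 and 0.72.

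Every scaling used here brings the libraries to a common level, so a rise or fall shared by all peaks would not be seen. Higher and lower, gain and loss, therefore describe throughout how counts were divided among peaks, not absolute amounts of H3K27ac. Whether the total amount of H3K27ac differed between the groups was not tested. The balance of directions depended on scaling. With plain library totals in place of TMM (trimmed mean of M-values) factors, 30604 peaks were higher and 24524 lower, so that higher peaks made up 55.5% of calls in place of 43.8%, and the median over all peaks moved to 0.12. With all libraries thinned to the smallest total, 11379 peaks were higher and 18248 lower. Without Veh-CFC replicate 1, 13543 were higher and 20590 lower.

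Strong promoters had the largest share of peaks lower, 54.6%. The authors' matrix gives each peak a chromatin state, and of 15611 peaks in the strong promoter state 173 were higher and 8518 lower in HDACi-Context, with a median log2 change of -0.62. Peaks in the active enhancer state were divided, with 5043 of 41914 higher and 10160 lower and a median of -0.08, which became 0.02 under library totals. Primed enhancers, a state that usually denotes elements poised but not fully active, went the other way: 7473 of 33866 were higher and 3235 lower, with a median of 0.21. Of the peaks in the state named control, 9457 of 46429 were higher and 5488 lower, with a median of 0.19. Of 6113 peaks in repressed regions, 526 were higher and 1636 lower, with a median of -0.22, and the remaining 81 peaks were weak promoters. The medians of strong promoters, primed enhancers, control and repressed peaks kept their signs under library totals, relative log expression factors and loess offsets.

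**Figure D1:**
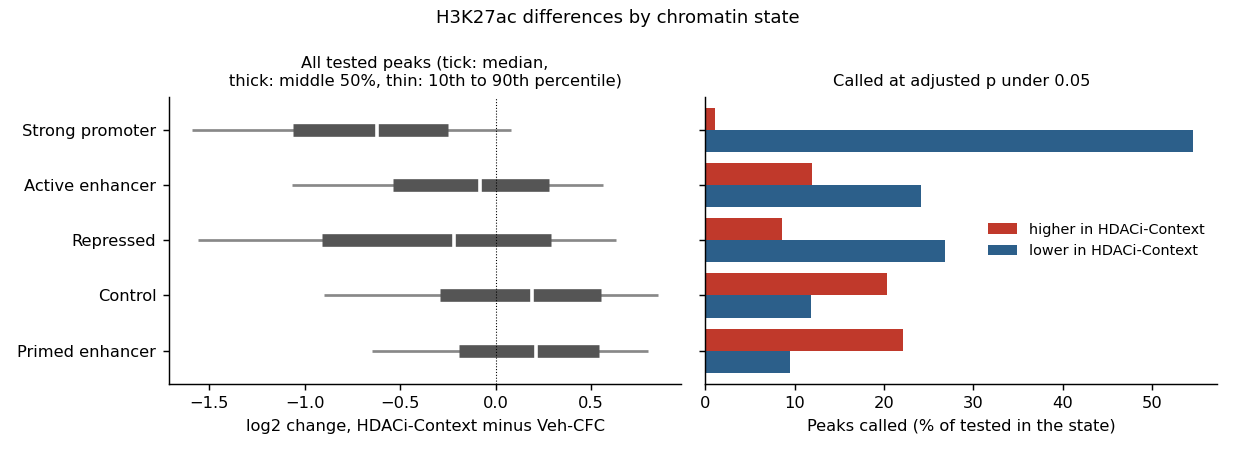
Log2 change in H3K27ac, HDACi-Context minus Veh-CFC, by the authors' chromatin state (left: tick, median; thick bar, middle 50% of peaks; thin bar, 10th to 90th percentile), and the share of tested peaks called higher or lower (right). Strong promoters have the lowest median, -0.62, with 54.6% of peaks called lower and 1.11% higher, while primed enhancers have the highest, 0.21, with 22.1% called higher and 9.55% lower.

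Within a state, position mattered as well. Primed enhancers between genes had 2273 of 8290 peaks higher and 433 lower, with a median of 0.34, and control peaks between genes had 4091 of 15492 higher and 1069 lower, with a median of 0.33. Active enhancers in exons, by contrast, had 22 of 800 higher and 490 lower, with a median of -0.81. In strong promoter peaks annotated to exons none of 482 was higher and 390 were lower, with a median of -1.11. Over all states, peaks within introns were nearly balanced, with 12917 of 83731 higher and 16429 lower and a median of 0.02.

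The same contrast appeared in how each library's counts were spread. Promoter peaks, defined here as peaks reaching to within 1000 bp of the transcription start site (TSS) named beside them, took 19.6%, 19.0% and 18.3% of counts in HDACi-Context libraries and 26.6%, 25.6% and 24.8% in Veh-CFC libraries. All 3 HDACi-Context libraries lay below all 3 Veh-CFC libraries. The difference in means was -6.73 percentage points (19.0 ± 0.651% and 25.7 ± 0.904%, SD, n = 3 each). Primed enhancers took 20.4%, 21.0% and 21.4% in HDACi-Context and 17.0%, 17.4% and 17.8% in Veh-CFC, again without overlap. For these shares and those of the other 4 states the exact two-sided permutation test gave p = 0.1, which is the smallest that 3 against 3 libraries allow, also after adjustment over the 6 shares. In HDACi-CFC promoter peaks took 25.2 ± 0.104% and in Veh-Context 21.8 ± 0.547% (SD, n = 3 each), so that the 2 groups compared here had the lowest and the highest mean of the 4, although the Veh-CFC and HDACi-CFC libraries overlapped. Within both groups the library with the highest promoter share also lay highest on the first principal component; the part that the overall promoter share has in the single promoter results was not tested.

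**Figure D2:**
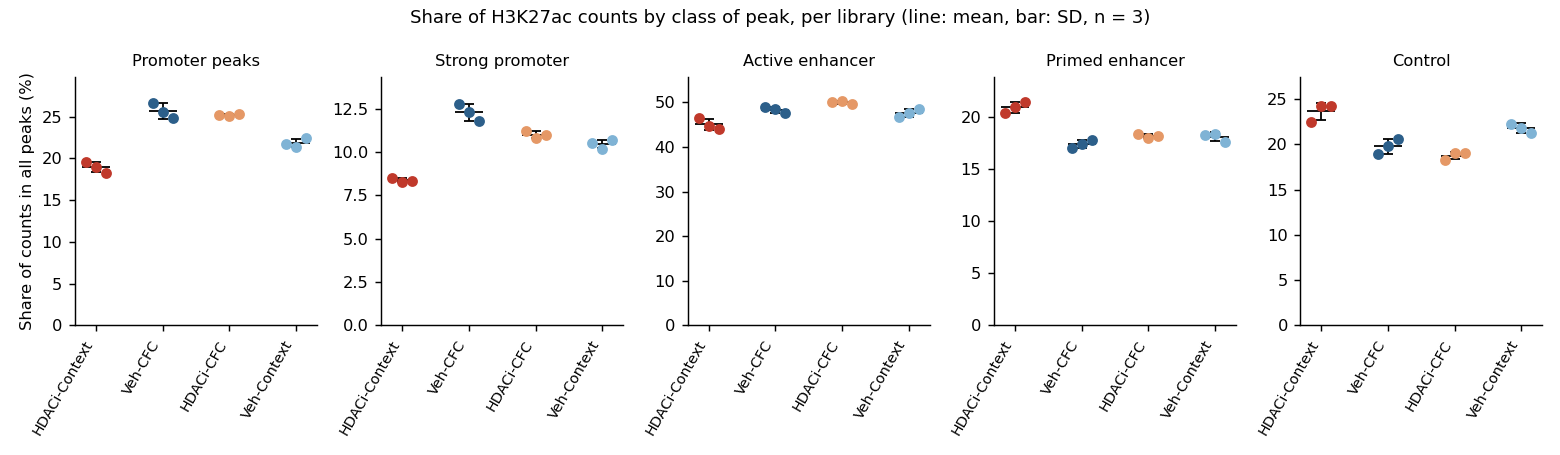
Share of each library's counts (%) in promoter peaks and in peaks of 4 chromatin states, with 1 point per library and the mean and SD of 3 libraries. HDACi-Context libraries lie lowest for promoter peaks, between 18.3% and 19.6%, and highest for primed enhancers, between 20.4% and 21.4%.

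Counted by gene, with each gene represented by its promoter peak of highest mean count, 7988 of 14154 genes (56.4%) were lower in HDACi-Context than in Veh-CFC and 342 (2.42%) were higher, and the median log2 change was -0.58. These shares are the background for every gene list below. Among peaks that span the TSS itself, 170 of 5898 were higher and 3702 lower.

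Large losses at promoters are described for the 6 peaks with the lowest log2 change among those with a mean level at or above the median of all peaks, no overlap between groups and a gene symbol that is not a predicted gene. Fmn2, a formin that nucleates actin filaments, had 0.209, 0.174 and 0.068 CPM in HDACi-Context libraries and 14.3, 5.94 and 1.13 CPM in Veh-CFC libraries (chr1:174502128-174503342, mm10, in an exon). The HDACi-Context values rest on 3, 3 and 1 counts, and 1 is the smallest count in the matrix, so the log2 change of -5.47 ± 1.07 (SE, adjusted p = 0.0044) is not a precise ratio. Mamld1, which encodes a mastermind-like transcriptional coactivator, had 0.556, 0.116 and 0.34 CPM in HDACi-Context and 11.8, 6.26 and 4.67 CPM in Veh-CFC, with a log2 change of -4.50 ± 0.41 (adjusted p = 5.8e-09). The HDACi-Context values of Mamld1 rest on 8, 2 and 5 counts. In neither Fmn2 nor Mamld1 did the groups overlap, but the Veh-CFC libraries differed among themselves, with replicate 1 highest in both. Brd2, a bromodomain protein that reads acetylated histones, had 1.88, 0.696 and 0.476 CPM in HDACi-Context and 26.6, 17.0 and 8.49 CPM in Veh-CFC (chr17:34119870-34122204), a log2 change of -4.12 ± 0.55 (adjusted p = 0.00052). Tnrc18 had 3.75, 1.91 and 1.56 CPM in HDACi-Context and 34.2, 22.7 and 20.5 CPM in Veh-CFC, a log2 change of -3.43 ± 0.24 (adjusted p = 1.4e-09). It had the smallest standard error of the 6 promoter peaks named for their losses. The other 2 were Ppp2r2c, a regulatory subunit of protein phosphatase 2A, at -3.65 ± 0.43, and Rhbdl1, a rhomboid family protein, at -3.49 ± 0.65. All 6 lie in the strong promoter state.

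Promoter gains were smaller. Hlcs, the enzyme that attaches biotin to carboxylases, had 8.55, 9.16 and 9.66 CPM in HDACi-Context and 5.01, 2.65 and 3.11 CPM in Veh-CFC (chr16:94288180-94289824, in an intron), a log2 change of 1.36 ± 0.21 (adjusted p = 1.7e-06). Abca8a, an ATP-binding cassette transporter, had 9.04, 10.5 and 10.7 CPM in HDACi-Context and 4.5, 3.92 and 4.11 CPM in Veh-CFC, a log2 change of 1.28 ± 0.18 (adjusted p = 4.1e-07). In both genes every HDACi-Context library was above every Veh-CFC library, but the rule that named these gains required such separation. Bach2, a transcriptional repressor of the BTB and leucine zipper class, followed at 1.27 ± 0.17, Fgf12, an intracellular fibroblast growth factor homologue that binds sodium channels, at 1.18 ± 0.20, Tmem71 at 1.12 ± 0.20, and Gfral, the receptor of GDF15, at 1.11 ± 0.21. None of these 6 lay in the strong promoter state: 4 were primed enhancers and 2 were control peaks.

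Of the promoter peaks named for the size of their change in this comparison or in both comparisons, 4 span the TSS, and all 4 matched a RefSeq promoter window, running from 250 bases before the TSS to 50 after it (GRCm38.p6, the assembly behind mm10). They are printed to set a promoter that gained acetylation beside promoters that lost it, 5′ to 3′ on the gene's strand, with CpG dinucleotides in capitals. Abca8a was higher in HDACi-Context and holds 4 CpG (44.3% GC, chr11:110095888-110096187, minus strand); Brd2 was lower and holds 14 (66.0% GC, chr17:34121698-34121997, minus strand). Wdr75 holds 12 (51.3% GC, chr1:45794916-45795215, plus strand) and Rpl10 holds 17 (53.7% GC, chrX:74270566-74270865, plus strand), and both were lower in the drug group of either comparison described below. Over all 32851 windows of the table the median was 7 CpG and 52.7% GC. 
Abca8a: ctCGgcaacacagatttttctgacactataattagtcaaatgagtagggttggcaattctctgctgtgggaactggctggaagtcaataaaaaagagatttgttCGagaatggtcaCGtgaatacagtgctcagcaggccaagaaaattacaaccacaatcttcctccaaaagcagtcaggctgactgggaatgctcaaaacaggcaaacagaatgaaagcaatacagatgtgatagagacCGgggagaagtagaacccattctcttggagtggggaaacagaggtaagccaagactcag
Brd2: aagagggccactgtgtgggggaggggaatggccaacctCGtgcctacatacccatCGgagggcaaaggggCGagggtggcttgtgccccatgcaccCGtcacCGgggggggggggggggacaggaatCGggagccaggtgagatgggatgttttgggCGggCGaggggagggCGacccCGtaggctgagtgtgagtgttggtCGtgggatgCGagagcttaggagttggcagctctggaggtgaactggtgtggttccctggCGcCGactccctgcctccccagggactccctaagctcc
Wdr75: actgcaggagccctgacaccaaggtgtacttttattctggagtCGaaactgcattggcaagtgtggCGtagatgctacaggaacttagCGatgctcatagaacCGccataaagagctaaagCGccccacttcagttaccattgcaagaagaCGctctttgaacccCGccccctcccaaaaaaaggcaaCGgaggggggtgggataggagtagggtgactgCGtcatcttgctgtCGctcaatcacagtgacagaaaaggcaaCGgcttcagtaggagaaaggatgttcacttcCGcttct
Rpl10: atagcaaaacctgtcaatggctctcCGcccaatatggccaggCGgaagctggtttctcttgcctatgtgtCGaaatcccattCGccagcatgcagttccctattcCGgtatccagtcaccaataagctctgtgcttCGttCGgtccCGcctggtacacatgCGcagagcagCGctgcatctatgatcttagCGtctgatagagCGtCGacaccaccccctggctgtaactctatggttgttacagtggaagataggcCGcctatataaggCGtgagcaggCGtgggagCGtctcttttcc
Of 6 motifs searched on both strands, the GC box GGGCGG was found in the Brd2, Wdr75 and Rpl10 windows and is present in 35.7% of all windows. The CCAAT box CCAAT was found in the Wdr75 and Rpl10 windows (37.4% of all), and the E-box CACGTG in the Abca8a window (7.15% of all). No match for the cyclic AMP response element TGACGTCA (1.79% of all windows), the AP-1 motif TGANTCA (7.81%) or the TATA box TATAAA (13.6%) lies in these 4 windows. No motif searched contains another, and 4 windows are too few to compare gains with losses.

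Away from promoters, the gains described here had log2 changes of 1.69 to 1.85. A primed enhancer whose nearest TSS is that of Lclat1, a lysocardiolipin acyltransferase, had 7.93, 9.21 and 9.66 CPM in HDACi-Context and 2.7, 2.86 and 1.84 CPM in Veh-CFC (chr17:73074632-73076688). Its log2 change was 1.83 ± 0.21 (adjusted p = 6.6e-09), and the groups did not overlap, which the naming rule required. Other peaks were nearest to Mir6354 (1.85 ± 0.23), Mir6540 (1.81 ± 0.24), Mettl15, a mitochondrial RNA methyltransferase (1.71 ± 0.26), and Ctsc, the protease cathepsin C (1.69 ± 0.26). Nearest gene is a matter of position only: the Ctsc peak lies 331545 bp from its TSS and the Mettl15 peak 427257 bp.

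Losses away from promoters included a peak annotated to a 3′ UTR, whose named TSS is that of Myrf, the transcription factor that drives myelin genes. It had 0.626, 0.174 and 0.068 CPM in HDACi-Context, on 9, 3 and 1 counts, and 9.25, 3.39 and 0.849 CPM in Veh-CFC. Its log2 change was -3.96 ± 1.00 (adjusted p = 0.015), and the call was lost without HDACi-Context replicate 2 (adjusted p = 0.055). A peak 1199123 bp from Lrrc4c, which encodes a netrin-G ligand, had 20.9, 8.35 and 10.9 CPM in HDACi-Context and 173, 138 and 212 CPM in Veh-CFC, a log2 change of -3.71 ± 0.51. This intergenic peak is 1332 bp wide with a Veh-CFC mean of 174 CPM, while the Prox1 promoter peak has 231 CPM over 22494 bp. Whether so high a signal in so narrow a peak is an artefact was not tested, and its value should be read with caution. Peaks near Bahcc1 (-3.20 ± 0.30), Gas2l1 (-3.05 ± 0.50) and Zfp958 (-2.96 ± 0.52) were in the strong promoter state although their nearest named TSS is over 1000 bp away. The peak nearest Trim30a (-3.85 ± 1.25, adjusted p = 0.042) lost its call under 7 alternatives, and it rests on Veh-CFC values of 28.5, 5.62 and 10.9 CPM that differ widely.

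Immediate early genes, the first genes that neurons turn on after activity, were mostly lower with drug alone than with shock alone. Of 28 measured, 19 were lower (67.9%, beside 56.4% of all genes) and none was higher. Their median log2 change was -0.66, beside -0.58 over all genes. Per1, a clock gene that also responds to neuronal activity, had 30.5, 25.7 and 20.4 CPM in HDACi-Context and 85.4, 82.3 and 70.1 CPM in Veh-CFC (chr11:69095200-69104380), a log2 change of -1.64 ± 0.12 (adjusted p = 1.1e-13). Junb, a subunit of the AP-1 transcription factor, had 4.52, 4.46 and 3.67 CPM in HDACi-Context and 14.1, 12.3 and 13.9 CPM in Veh-CFC (chr8:84978899-84980077), a log2 change of -1.66 ± 0.16 (adjusted p = 1.6e-10). In both genes the HDACi-Context and Veh-CFC libraries were far apart. Fosb, another AP-1 subunit, had 4.45, 2.49 and 2.11 CPM in HDACi-Context and 19.3, 18 and 13.3 CPM in Veh-CFC, a log2 change of -2.50 ± 0.26. Nr4a1, an orphan nuclear receptor, fell by 1.13 ± 0.20 on the log2 scale. Arc, which regulates glutamate receptor trafficking, had 24.0, 17.4 and 13.6 CPM in HDACi-Context and 51.5, 35.6 and 24.6 CPM in Veh-CFC (-1.03 ± 0.26, adjusted p = 0.011), with an adjusted p of 0.05 under loess offsets that ended the call.

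Fos itself, the classical marker of recent neuronal activity, was not called. Its promoter peak had 6.6, 6.61 and 6.33 CPM in HDACi-Context and 7.71, 5.94 and 5.52 CPM in Veh-CFC (chr12:85471038-85473824), so that the groups overlapped. The log2 change was 0.03 ± 0.18 (adjusted p = 0.92), with a 95% interval of -0.34 to 0.40, and its sign turned under 4 alternatives. HDACi-CFC libraries had 10.4, 8.63 and 11 CPM and Veh-Context libraries 3.28, 5.3 and 4.63 CPM, so both groups compared here lay between them. Against the shared Veh-Context libraries, the log2 change of Fos was 0.60 in HDACi-Context and 0.58 in Veh-CFC. A second Fos promoter peak had a log2 change of -0.59 ± 0.31 (adjusted p = 0.13).

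Egr1 and Npas4, transcription factors of the same early response, gave different values at different promoter peaks. The broad Egr1 peak upstream of the gene had 53.3, 47.4 and 38.8 CPM in HDACi-Context and 65.9, 55.2 and 50.0 CPM in Veh-CFC, which overlap. Its log2 change of -0.29 ± 0.12 (adjusted p = 0.046) lost its call under 9 alternatives, while the smaller Egr1 peak downstream of the TSS was lower by a clearer margin, -1.37 ± 0.23 (adjusted p = 3.1e-05). For Npas4 the peak with the most counts had 31.3, 31.2 and 25.2 CPM in HDACi-Context and 32.8, 33.1 and 32.7 CPM in Veh-CFC, and its log2 change of -0.17 ± 0.12 did not pass (adjusted p = 0.27, 95% interval -0.41 to 0.07). The other Npas4 promoter peak was lower, at -1.29 ± 0.23 (adjusted p = 3.7e-05).

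**Figure D3:**
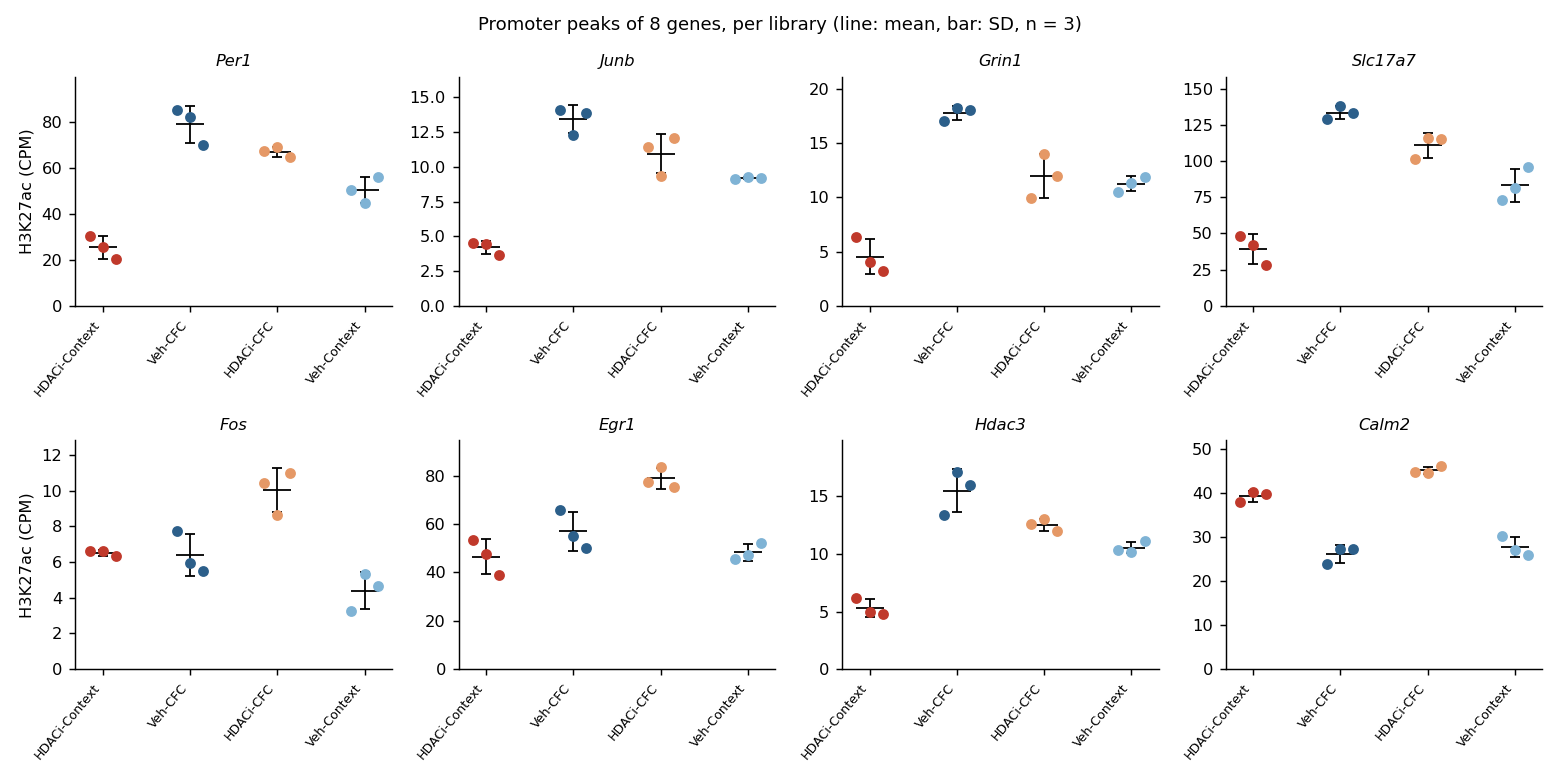
H3K27ac level (CPM after TMM scaling) at the promoter peak of 8 genes, 1 point per library with the mean and SD of 3 libraries in each of the 4 groups. Per1, Junb, Grin1, Slc17a7 and Hdac3 are lowest in HDACi-Context and highest in Veh-CFC, Fos and Egr1 are highest in HDACi-CFC, and Calm2 is higher in both drug groups than in both vehicle groups.

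Late response genes follow the early ones and include growth factors and secreted proteins. They had 14 of 23 members lower (60.9%, beside 56.4% of all genes) and 1 higher. Their median was -0.48, beside -0.58 over all genes. Nrn1, a secreted neuritin, had 58.9, 54.5 and 50.7 CPM in HDACi-Context and 129, 129 and 126 CPM in Veh-CFC, a log2 change of -1.23 ± 0.10 (adjusted p = 4.1e-12). Vgf, a secreted neuropeptide precursor, was at -2.08 ± 0.32. The exception was Bdnf, brain-derived neurotrophic factor, whose promoter peak of highest count had 44.6, 56.6 and 51.8 CPM in HDACi-Context and 34.2, 42.8 and 42.6 CPM in Veh-CFC (chr2:109708274-109715606). That log2 change of 0.36 ± 0.12 (adjusted p = 0.016) did not pass when libraries were thinned (adjusted p = 0.11), without HDACi-Context replicate 2 (0.12) or without Veh-CFC replicate 1 (0.1). Nor did it pass when only the libraries of the compared groups were fitted (0.066). Bdnf has several promoters, and the peak nearest its most upstream measured TSS was lower, at -0.36 ± 0.12 (adjusted p = 0.02), while the other 4 Bdnf promoter peaks lay between -0.12 and 0.11 and were not called.

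Genes of the excitatory synapse had the largest share of members lower among the 16 lists of gene function, 88.6%. Of 35 glutamate receptor and postsynaptic density genes, 31 were lower and none higher, with a median of -0.75. Over all genes 56.4% were lower, with a median of -0.58. Grin1, the obligatory subunit of NMDA receptors, had 6.33, 4.06 and 3.20 CPM in HDACi-Context and 17.0, 18.2 and 18 CPM in Veh-CFC (chr2:25317448-25318804), a log2 change of -1.97 ± 0.17 (adjusted p = 1.5e-11). Dlg4, which encodes the scaffold PSD-95, had 37.6, 36.5 and 26.1 CPM in HDACi-Context and 84.1, 81.3 and 83.8 CPM in Veh-CFC, a log2 change of -1.31 ± 0.12. The Veh-CFC libraries agreed closely in Grin1 and Dlg4, and no HDACi-Context library came near them. A second Grin1 promoter peak, upstream of the TSS, had a log2 change of -0.37 ± 0.20 that was not called (adjusted p = 0.13).

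On the presynaptic side 21 of 31 genes (67.7%) were lower and 1 was higher, with a median of -0.59. Over all genes 56.4% were lower and the median was nearly the same, -0.58. Slc17a7, the vesicular glutamate transporter of these neurons, had 48.3, 42.1 and 27.9 CPM in HDACi-Context and 129, 138 and 133 CPM in Veh-CFC (chr7:45159433-45173560), a log2 change of -1.76 ± 0.14 (adjusted p = 6.1e-11). Syt7, a calcium sensor for vesicle fusion, was at -0.97 ± 0.11. The member that was higher was Sypl, a synaptophysin-like protein, with 29.2, 36.0 and 35.4 CPM in HDACi-Context and 17.7, 24.2 and 23.8 CPM in Veh-CFC (0.61 ± 0.13, adjusted p = 0.00025).

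Among genes for voltage-gated ion channels and for signalling, calls in both directions were found. Of 40 voltage-gated channel genes, 26 were lower (65.0%, beside 56.4% of all genes) and 2 higher. Their median was -0.46, beside -0.58 over all genes. Kcnip3 and Kcnip2, auxiliary subunits of Kv4 potassium channels, were at -1.30 ± 0.12 and -1.12 ± 0.13. Cacna1c, an L-type calcium channel, was higher, with 37.7, 39.2 and 38.0 CPM in HDACi-Context and 24.1, 31.9 and 29.4 CPM in Veh-CFC (0.42 ± 0.12, adjusted p = 0.0048). Kcnq3, a subunit of the M-type potassium channel, was higher by 0.31 ± 0.10. That call was lost without HDACi-Context replicate 2 (adjusted p = 0.081) and when only the libraries of the compared groups were fitted (0.072).

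Of 48 genes for cyclic AMP, calcium and MAP kinase signalling, 26 were lower (54.2%, beside 56.4% of all genes) and 2 higher, with a median of -0.36. Camkk1, a kinase that activates CaM kinases, had 72.8, 65.8 and 47.1 CPM in HDACi-Context and 145, 138 and 137 CPM in Veh-CFC (-1.17 ± 0.12). Pde4a, which breaks down cyclic AMP, was at -1.24 ± 0.14. Calm2, a calmodulin gene, was higher at its promoter peak of highest count, with 38.0, 40.3 and 39.8 CPM in HDACi-Context and 23.9, 27.4 and 27.3 CPM in Veh-CFC (chr17:87438351-87446068), a log2 change of 0.59 ± 0.12 (adjusted p = 0.00011). All 3 HDACi-Context libraries of this peak were above all 3 Veh-CFC libraries. The other Calm2 promoter peak, nearer the TSS, was not called (-0.27, adjusted p = 0.15). Camk4, a nuclear CaM kinase, had a log2 change of 0.39 ± 0.15 (adjusted p = 0.031) that did not pass under 7 alternatives.

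GABA receptor genes had the median nearest to 0 of these 16 lists, -0.26, beside -0.58 over all genes. Of 13 such genes 6 were lower (46.2%, beside 56.4% of all genes) and 1 higher. Gabrd, a receptor subunit that serves tonic inhibition, and Gabrb2, a beta subunit, were lower, at -0.88 ± 0.13 and -0.63 ± 0.11. Over all 98 peaks within 50 kb of these genes the count turned round, with 45 higher, 12 lower and a median of 0.47.

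Of 37 adhesion and axon guidance genes, 24 were lower (64.9%, beside 56.4% of all genes) and none higher. Their median was -0.42, beside -0.58 over all genes. Nrp2, a semaphorin receptor, had 9.94, 9.56 and 7.35 CPM in HDACi-Context and 32.2, 27.5 and 36.2 CPM in Veh-CFC (-1.83 ± 0.14), and Slit1, a repulsive guidance cue, was at -1.24 ± 0.13. Here too the promoters and their surroundings differed: of 379 peaks within 50 kb, 126 were higher and 46 lower, with a median of 0.37. The medians within 50 kb were also above 0 for postsynaptic (0.08), presynaptic (0.18) and signalling genes (0.01) and for acetyltransferases and readers (0.14), beside -0.16 over all 95681 such peaks. Those of immediate early (-0.39) and ribosomal protein genes (-0.36) stayed below 0.

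Promoter H3K27ac was also lower at most genes of the enzymes that remove histone acetylation. Of 16 histone deacetylase genes, 12 were lower (75.0%, beside 56.4% of all genes) and 1 higher. Their median was -0.81, beside -0.58 over all genes. Among the class I genes, Hdac3 had 6.19, 4.93 and 4.76 CPM in HDACi-Context and 13.4, 17.1 and 16.0 CPM in Veh-CFC (-1.55 ± 0.16, adjusted p = 2.5e-10), and Hdac1 had 9.52, 10.1 and 8.84 CPM in HDACi-Context and 16.1, 17.2 and 12.0 CPM in Veh-CFC (-0.67 ± 0.15, adjusted p = 0.00038). In both the groups did not overlap. The Hdac1 peak is intronic and in the control state, and the other Hdac1 promoter peak, in the strong promoter state, was not called (0.02 ± 0.28, adjusted p = 0.97). Hdac8 had 3.27, 4.17 and 3.60 CPM in HDACi-Context and 9.63, 5.83 and 4.53 CPM in Veh-CFC, and its log2 change of -0.85 ± 0.21 was -0.50 and no longer called without Veh-CFC replicate 1 (adjusted p = 0.11). Hdac2 had 5.63, 6.03 and 7.01 CPM in HDACi-Context and 3.73, 5.83 and 3.96 CPM in Veh-CFC, and its log2 change of 0.44 ± 0.21 did not pass (adjusted p = 0.088, 95% interval 0.03 to 0.86 before adjustment). It did pass under library totals (0.54, adjusted p = 0.035) and without Veh-CFC replicate 2 (0.695, adjusted p = 0.029). This Hdac2 peak is intronic and in the primed enhancer state. The other Hdac2 promoter peak, in the strong promoter state, had the opposite sign and was not called (-0.25 ± 0.31, adjusted p = 0.55).

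Outside class I, Sirt6, an NAD-dependent deacetylase, was at -1.91 ± 0.18, and Hdac9 was the member called higher, at 0.39 ± 0.13 (adjusted p = 0.013). The Hdac9 call was lost without HDACi-Context replicate 3 (0.12), without Veh-CFC replicate 1 (0.083) and when only the libraries of the compared groups were fitted (0.055). Of 18 acetyltransferases and acetyl readers, 10 were lower and none higher, with a median of -0.60, close to all genes (56.4% lower, median -0.58). Besides Brd2, the bromodomain genes Brd9 and Brd3 were at -1.29 ± 0.22 and -1.11 ± 0.21. Of 21 glucocorticoid response genes, 14 were lower and 1 higher, with a median of -0.56. Plin4, a lipid droplet protein, and Dusp4, a MAP kinase phosphatase, were at -1.47 ± 0.17 and -0.94 ± 0.12. Nr3c2, the mineralocorticoid receptor, was higher by 0.44 ± 0.13, which did not pass when libraries were thinned (adjusted p = 0.058).

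Housekeeping genes were called lower or not called, and none was called higher, beside 2.42% higher among all genes. Over all genes 56.4% were lower, with a median of -0.58. Cytosolic ribosomal protein genes had 31 of 42 lower with a median of -0.68, respiratory chain and ATP synthase genes 32 of 44 with -0.68, and proteasome subunits 20 of 28 with -0.60. Cholesterol synthesis genes had 15 of 21 lower with -0.76, and translation factors and tRNA synthetases 26 of 42 with -0.64. Rps6, a small subunit ribosomal protein, had 6.95, 4.93 and 4.35 CPM in HDACi-Context and 14.3, 17.9 and 17.6 CPM in Veh-CFC (-1.62 ± 0.16). Ndufa9 of respiratory complex I and Atp5g1 of ATP synthase were at -1.36 ± 0.15 and -1.40 ± 0.16. The proteasome subunits Psmd6 and Psmb3 were at -1.22 ± 0.22 and -0.78 ± 0.14. Ebp, a sterol isomerase, was at -0.81 ± 0.15, and the elongation factor genes Eef1b2 and Eef1d at -1.39 ± 0.16 and -1.26 ± 0.17. In all of these genes the 3 HDACi-Context libraries lay below the 3 Veh-CFC libraries.

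Marker genes of granule neurons, the main neurons of the dentate gyrus, and of other cell types were examined in the same way. Of 14 granule neuron markers, 11 were lower (78.6%, beside 56.4% of all genes) and 2 higher. Their median was -0.51, beside -0.58 over all genes. Over the 143 peaks within 50 kb of these genes, 31 were higher and 31 lower. The median of those peaks was 0.16, beside -0.16 over all 95681 such peaks. Prox1, the transcription factor that defines granule neurons, had 94.9, 109 and 88.3 CPM in HDACi-Context and 223, 221 and 249 CPM in Veh-CFC (chr1:190152741-190175234), a log2 change of -1.24 ± 0.11 (adjusted p = 1.1e-11). Bcl11b, another transcription factor of these cells, was at -1.20 ± 0.11. Tdo2 and Zbtb20 had log2 changes of 0.41 ± 0.15 and 0.44 ± 0.17, which did not pass under 7 alternatives each.

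Markers of glia, which the NeuN sort should leave out, were also lower in HDACi-Context where called. Of 12 oligodendrocyte markers with a promoter peak 9 were lower (75.0%, beside 56.4% of all genes), with a median of -1.11, beside -0.58 over all genes. Their summed level was 111 to 127 CPM in HDACi-Context and 200 to 267 CPM in Veh-CFC. Mag, a myelin protein, had 1.67, 1.33 and 0.884 CPM in HDACi-Context and 9.63, 6.47 and 4.95 CPM in Veh-CFC (-2.43 ± 0.26). Of 8 oligodendrocyte precursor markers 5 were lower (62.5%, median -0.68), Olig2 and Cspg4 among them at -2.89 ± 0.52 and -1.27 ± 0.18. Sums over these precursor markers were 24.4 to 31.4 CPM in HDACi-Context and 42.5 to 61.0 CPM in Veh-CFC. Of 9 microglia markers 7 were lower (77.8%), with a median of -1.36 and sums of 36.9 to 40.3 CPM in HDACi-Context and 53.7 to 66.4 CPM in Veh-CFC. Tmem119 and Spi1 were at -2.96 ± 0.41 and -2.45 ± 0.37. Of 11 astrocyte markers 6 were lower (54.5%, near the 56.4% of all genes), with a median of -0.42. Their sums were 109 to 124 CPM in HDACi-Context and 143 to 157 CPM in Veh-CFC. Gjb6 was at -2.24 ± 0.46 and Slc1a2 at -0.41 ± 0.13, the latter a call lost under loess offsets (adjusted p = 0.083). The peaks of Olig2, Tmem119, Spi1 and Gjb6 rest on 3 to 11 counts per HDACi-Context library, so their log2 changes are not precise ratios.

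Markers of other neurons gave 6 of 10 lower for CA pyramidal cells (median -0.74, 37.4 to 48.3 CPM in HDACi-Context and 59.8 to 78.7 CPM in Veh-CFC; Mpped1 at -1.45 ± 0.25, Dkk3 at -0.77 ± 0.15). Of 6 interneuron markers 3 were lower (median -0.46, 79.8 to 88.4 CPM in HDACi-Context and 140 to 145 CPM in Veh-CFC; Cck at -1.23 ± 0.13). Of 3 endothelial and mural markers only Pdgfrb was called, at -0.79 ± 0.16, with a list median of -0.52 and sums of 8.91 to 10.3 CPM in HDACi-Context and 12.6 to 18.1 CPM in Veh-CFC. Of all genes 56.4% were lower. Fewer nuclei of a type and less acetylation per nucleus cannot be told apart in bulk libraries, and the part of cell composition in the promoter losses was not tested.

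**Figure D4:**
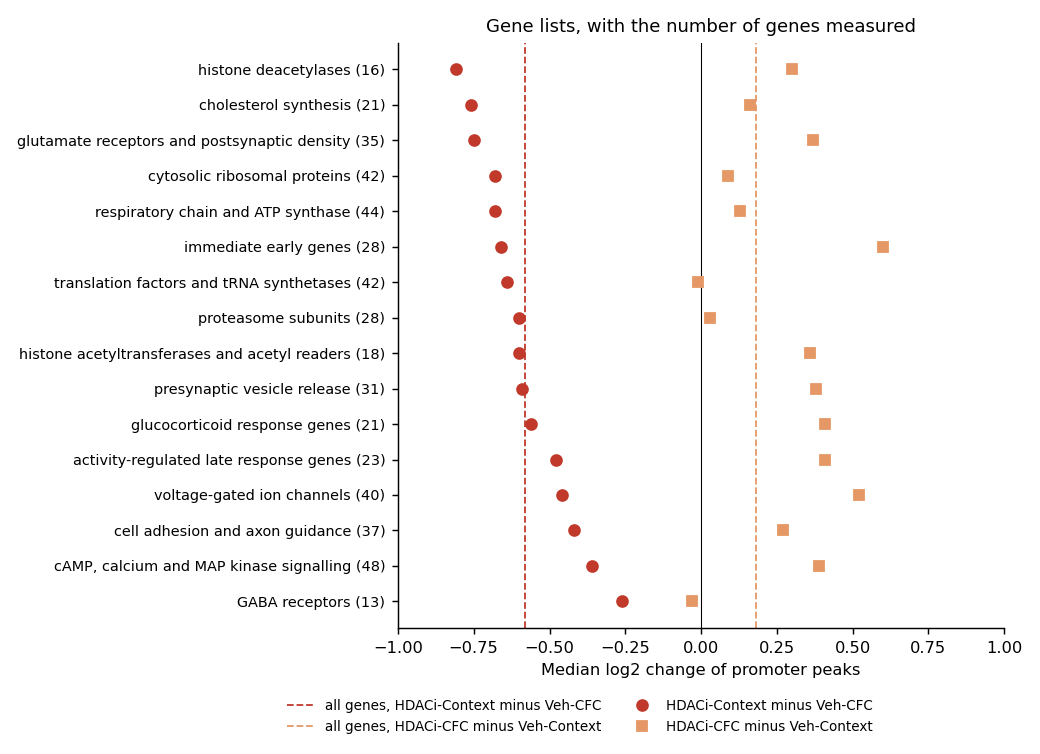
Median log2 change of promoter peaks in 16 gene lists (number of genes measured in brackets), for HDACi-Context minus Veh-CFC and for HDACi-CFC minus Veh-Context, with the medians over all genes dashed. In the first comparison the medians run from -0.81 for histone deacetylases to -0.26 for GABA receptors around -0.58 for all genes; in the second they run from -0.03 for GABA receptors to 0.60 for immediate early genes around 0.18.

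The comparison of HDACi-CFC with Veh-Context has the same 2 factors but turns the shock round, and it shares no library with the comparison above. From the first to the second, the drug stays on the same side and the shock, with the cage, changes sides. In HDACi-CFC 13707 peaks (9.52%) were higher and 12414 (8.62%) lower than in Veh-Context; with library totals these became 11026 and 16701, or 39.8% higher among calls in place of 52.5%, and with thinned libraries 7727 and 4340, or 64.0%. Called in both comparisons were 14715 peaks. Of these, 8884 were lower in HDACi-Context than Veh-CFC and higher in HDACi-CFC than Veh-Context, which is 30.6% of the 29051 lower peaks of the first comparison and 64.8% of the 13707 higher peaks of the second. A further 4197 had the opposite pair of signs, 18.5% of the peaks higher in the first comparison and 33.8% of those lower in the second. The order of these 2 classes depended on scaling: under library totals they held 6833 and 7283 peaks. In thinned libraries they held 4540 and 787, and by DESeq2 6751 and 1827.

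Peaks with the same sign in both were fewer: 537 were higher in both drug groups (2.37% of the higher peaks of the first comparison and 3.92% of those of the second) and 1097 were lower in both (3.78% and 8.84% of the lower peaks). Of the 1097 peaks lower in both, 768 were promoter peaks and 752 were in the strong promoter state. Among all 29051 peaks lower in the first comparison these numbered 11151 and 8518. Of the 537 higher in both, 316 were primed enhancers and 82 were promoter peaks. Among all 22675 peaks higher in the first comparison these numbered 7473 and 509. The counts of equal sign depend on depth and on single libraries: with thinned libraries they were 205 higher and 292 lower in both, in place of 537 and 1097. The 537 moved by more than 1.5 times without HDACi-Context replicate 2 (333), HDACi-CFC replicate 2 (345) or 3 (289) or Veh-Context replicate 1 (325). The 1097 did so without HDACi-CFC replicate 1 (684) or 3 (681) or Veh-Context replicate 1 (631) or 3 (646). The class of 8884 fell to 4519 without Veh-Context replicate 1. The class of 4197 was 2634 without HDACi-Context replicate 2, 2646 without Veh-CFC replicate 1, 2508 without HDACi-CFC replicate 1, 2426 without HDACi-CFC replicate 3, 2024 without Veh-Context replicate 1 and 2606 without Veh-Context replicate 3.

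**Figure D5:**
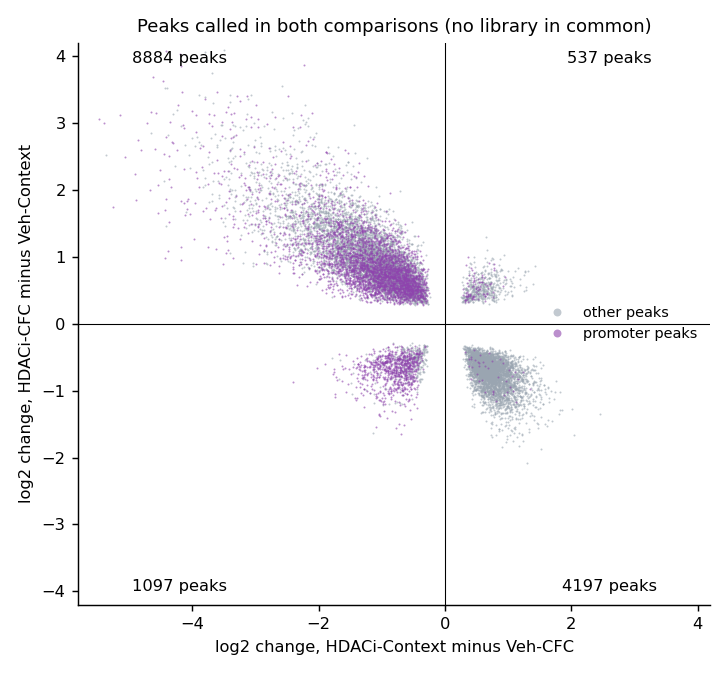
Log2 change in HDACi-CFC minus Veh-Context against HDACi-Context minus Veh-CFC for the 14715 peaks called in both, with promoter peaks in purple and others in grey. The upper left quadrant holds 8884 peaks and reaches the largest values, the lower right 4197 that are nearly all outside promoters, and the quadrants of equal sign hold 537 and 1097.

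Set against the same 3 Veh-Context libraries, the drug alone and the shock alone lay on opposite sides in the median over promoters. The median log2 change over the 14154 genes was -0.31 in HDACi-Context and 0.26 in Veh-CFC, both relative to Veh-Context. For Per1 the values were -0.99 in HDACi-Context and 0.64 in Veh-CFC, for Junb -1.12 and 0.54, for Grin1 -1.32 and 0.66, and for Slc17a7 -1.08 and 0.68, in the same order. Calm2 was at 0.50 in HDACi-Context and -0.09 in Veh-CFC. Since both comparisons use the Veh-Context libraries, their values are not independent of each other.

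By gene, 3224 promoters were called in both comparisons: 2545 were lower with drug alone and higher with drug and shock, 586 were lower in both, 62 were higher in both and 31 were higher with drug alone and lower with drug and shock. All 16 immediate early genes called in both belonged to the first of these classes, as did all 11 late response genes, 15 of 15 presynaptic genes and 14 of 15 postsynaptic genes. Ribosomal protein genes were divided, with 10 in that class and 5 lower in both drug groups, and so were respiratory chain genes, with 6 and 5. Of 6 translation factor genes 2 were in that class and 4 were lower in both.

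Zfp651, a zinc finger gene, had 1.46, 0.464 and 0.204 CPM in HDACi-Context and 13.6, 5.83 and 2.27 CPM in Veh-CFC (-3.37 ± 0.75, adjusted p = 0.0083), but 11.2, 7.7 and 9.66 CPM in HDACi-CFC and 0.672, 1.18 and 1.69 CPM in Veh-Context (3.01). With Fmn2 and Mamld1, whose log2 changes between HDACi-CFC and Veh-Context were 3.06 and 2.29, it makes up the promoters named by the rule for opposite changes. Outside promoters the Myrf peak reached 2.66 in HDACi-CFC against Veh-Context, and peaks near Midn and Zbtb7a were at -2.56 ± 0.68 and -2.26 ± 0.44 here and at 2.63 and 2.44 there. The Midn call was lost without HDACi-Context replicate 2 (adjusted p = 0.062) or 3 (0.05) and without Veh-CFC replicate 1 (0.067). It was also lost when only the HDACi-Context and Veh-CFC libraries were fitted (0.059).

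In the class with the reverse signs, peaks near Mir6336, Fars2 and Tafa1 were higher here, by 1.33 ± 0.24, 1.26 ± 0.28 and 1.18 ± 0.24, and were at -1.57, -1.24 and -1.20 in HDACi-CFC against Veh-Context. Its promoters were those of Gfral (-0.73 there), Atf7ip, a regulator of heterochromatin (0.84 ± 0.24 here and -0.80 there), and Nlk, a serine/threonine kinase (1.06 ± 0.29 and -0.78). The call of Atf7ip was lost in thinned libraries (adjusted p = 0.11) and that of Nlk without HDACi-Context replicate 3 (0.085) or Veh-CFC replicate 2 (0.051).

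Slc7a14, a lysosomal member of the SLC7 transporter family, was among the 6 peaks named as higher in both drug groups. Its intronic primed enhancer had 26.4, 37.6 and 30.1 CPM in HDACi-Context and 11.4, 14.1 and 17.0 CPM in Veh-CFC (chr3:31295214-31300739), a log2 change of 1.15 ± 0.14 (adjusted p = 4.2e-08). The same peak had 23.3, 30.5 and 29.2 CPM in HDACi-CFC and 15.2, 16.0 and 15.1 CPM in Veh-Context, a log2 change of 0.84. All 6 drug libraries were above all 6 vehicle libraries. The peak was named for being higher in both comparisons, which favours such separation, so it is no separate evidence. Peaks of Eef1a1 (0.88 ± 0.17 here and 0.81 there) and Stpg4 (0.85 ± 0.15 and 0.88) and promoter peaks of Sema4g, a semaphorin (0.78 ± 0.17 and 0.80), Snora81 (0.77 ± 0.19 and 0.89) and Zfp516 (0.77 ± 0.24 and 0.83) completed the rule's list. The calls of Eef1a1, Sema4g and Zfp516 did not pass in thinned libraries (adjusted p = 0.066, 0.082 and 0.059), nor did that of Zfp516 without Veh-CFC replicate 3 (0.057). The Calm2 peak described first above was higher in both comparisons too, by 0.59 and 0.70, and the Stpg4 peak is its neighbour on chromosome 17.

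Rpl10, a large subunit ribosomal protein whose promoter is printed above, was lower in both drug groups. It had 7.72, 6.55 and 7.55 CPM in HDACi-Context and 18.4, 18.8 and 20.7 CPM in Veh-CFC (chrX:74269203-74272090), a log2 change of -1.41 ± 0.14 (adjusted p = 3.3e-10). It had 8.69, 10.8 and 8.90 CPM in HDACi-CFC and 21.8, 19.7 and 20.5 CPM in Veh-Context, a log2 change of -1.14. Rpl10 was named for being lower in both comparisons, so low values in the 6 drug libraries are no separate evidence. Wdr75, a ribosome biogenesis factor (-1.28 ± 0.21 here and -1.24 there), and Rpp38, a subunit of RNase P (-1.43 ± 0.21 and -1.12), were lower in both at their promoters, and peaks near Zfp324 (-1.68 ± 0.19 and -0.83), Arhgap4 (-1.05 ± 0.22 and -0.76) and Mir7012 (-0.76 ± 0.16 and -0.76) were lower in both elsewhere.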

How the data were processed

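H3K27ac ChIP-seq was read from 1 matrix of whole-number counts per peak for 12 libraries, deposited by the authors with each peak's position, nearest gene and chromatin state. The column names give group and replicate but no antibody, and are taken as the H3K27ac libraries. Per the submitters' processing notes, the build was mm10 and the tools were, in no stated role or order, HOMER 4.11, MACS2, Bowtie2 2.3.5, DESeq2 1.28.1, SAMtools 1.9, DiffBind 2.16.2 and Trimmomatic 0.38; their settings and whether input was subtracted are not given in the sources used here. The smallest deposited count is 1, so that an empty peak appears to be written as 1. The series text describes 3 treatments with 4 replicates, whereas the labels give 4 groups of 3, which were used.

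Peaks passing filterByExpr with a minimum count of 10 (144014 of 144154) were scaled by TMM in edgeR 4.0.16 (R 4.3.3), fitted over all 12 libraries without a block and tested with the quasi-likelihood test, with Benjamini-Hochberg adjustment over all tested peaks and a threshold of 0.05. The fit was also run on simulated counts with a single spread for all peaks, where only peaks above a floor on mean count were changed. A first run fell short of the recovery required, after which the floor was raised and the required recovery lowered. The simulation therefore does not cover peaks with few counts. CPM were computed on TMM-scaled totals. Shares of counts were compared by exact permutation in SciPy 1.17.1 (Python 3.11.15). Depth, 6639158 to 16734757 counts per library, limits precision at narrow, low peaks.

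Named by rule were the 6 largest called changes in each direction among promoter and among other peaks whose groups did not overlap and whose mean was at least the median, 18 fixed genes, the 2 called members with the smallest adjusted p per list and direction, and 3 promoter and 3 other peaks per pair of signs. The members, lists and rules were chosen with earlier results of these data known. Alternatives were other scalings, no filter, DESeq2 1.42.0, a replicate block, thinning, the 6 libraries alone, other definitions of a promoter peak, and each library left out. A check of promoter GC content was void, because 4172 of 5898 peaks spanning a TSS (70.7%) had a RefSeq window and 80% were needed. No column of values was left unused apart from the inputs, which were not analysed here. Some genes that the rule names are not reported here.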

Additional observations from a re-analysis of the deposited data

How the results depend on the processing

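Called peaks numbered 22675 higher and 29051 lower, and 11379 and 18248 in thinned libraries. DESeq2 gave 15787 and 25315, and the 6 libraries alone gave 17648 and 26137. Leaving out 1 library at a time gave 13543 to 24549 higher and 20590 to 30893 lower. With the replicate block they were 22530 and 28711, and of the named peaks Trim30a lost its call (adjusted p = 0.065). Deviations from the group means correlated at 0.351, 0.067 and 0.227 between same-numbered libraries of the 2 groups. Between their other libraries they correlated at -0.294 to 0.114. The main fit has no block, and whether the numbers pair the samples cannot be told from these values. Peaks lower here and higher in HDACi-CFC than Veh-Context numbered 4540 in thinned libraries and 4519 to 10575 with 1 library left out. The reverse class numbered 7283 under library totals, 1827 by DESeq2, 787 thinned and 2024 to 5223 with 1 library left out. Peaks higher in both drug groups numbered 205 thinned and 289 to 581 with 1 library left out, and those lower in both 640 by DESeq2, 292 thinned and 631 to 1297 with 1 library left out. The promoter share differed by -6.73 percentage points (means of 19.0% in HDACi-Context and 25.7% in Veh-CFC), and by -7.16 to -6.25 with 1 library left out. With only peaks that span the TSS the difference was -3.29, on smaller shares of 8.22% in HDACi-Context and 11.5% in Veh-CFC. The log2 change of Fos, 0.028, became -0.020 under loess offsets, -0.008 with the 6 libraries alone, -0.028 leaving out Veh-CFC replicate 2 and -0.055 leaving out Veh-CFC replicate 3, the lowest, against 0.18, the highest, leaving out Veh-CFC replicate 1. Of 111 named peaks 108 were called, 89 of them under every setting tried. The cause of these shifts was not tested, except that thinning leaves fewer counts and a left-out library fewer samples.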

Other observations

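Peaks on the X chromosome had the highest median log2 change of the 20 chromosomes measured, 0.28 for HDACi-Context minus Veh-CFC over 2503 peaks, although 24.4% of them were promoter peaks, the largest share of any chromosome. Outside promoters the median of X-linked peaks was 0.45 over 1892 peaks. Chromosome 3 followed with a median of 0.20, and chromosome 11 had the lowest, -0.18, with 961 peaks higher and 2820 lower of 9982. In HDACi-CFC minus Veh-Context the order of these 3 was turned round, with medians of -0.18 for X, -0.17 for chromosome 3 and 0.10 for chromosome 11.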
